A study of Mus musculus with 12 samples.

Results

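The phase II conjugation genes of mouse liver were described across 12 liver RNA libraries. They are the genes of the deposited count table whose symbols name a glutathione S-transferase (GST, classes alpha, kappa, mu, omega, pi, theta and zeta), a microsomal glutathione S-transferase (MGST), a UDP-glucuronosyltransferase (UGT) or a sulfotransferase of family 1 (SULT1). The rule used symbols only, and entries marked as pseudogenes were left out. It found 51 genes of 36228 rows, namely 21 GST, 3 MGST, 21 UGT and 6 SULT1 genes.

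Conjugation is the second step by which liver disposes of foreign and endogenous compounds. GST enzymes join reactive electrophiles to glutathione, UGT enzymes transfer glucuronic acid from UDP-glucuronic acid to bilirubin, steroids, bile acids and drugs, and SULT1 enzymes transfer sulfate from PAPS to phenols, catechols and estrogens. The conjugates are more water soluble and leave the cell through export pumps, and several of these genes are known to differ between the sexes in rodent liver. The gene deleted in the study, *Idh2*, encodes the mitochondrial enzyme that makes NADPH while it oxidises isocitrate, and NADPH is what keeps glutathione reduced.

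The study compared livers of *Idh2*-/- germ-line knockout (IDH2 KO) mice with livers of wild-type (WT) littermates on the C57BL/6N background, killed at 8 to 10 weeks of age. Each library was made from the liver RNA of 1 mouse, and the groups were 4 WT females, 3 WT males, 3 IDH2 KO females and 2 IDH2 KO males. The deletion was present from the germ line in every tissue, so effects of its loss in liver and in other organs cannot be told apart. Reads were single-end and 50 bases long.

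Depth ranged from 15323300 to 25019649 reads per library, and the 51 genes held between 0.237% and 0.875% of them. *Idh2* itself had 967 to 2363 reads in the WT libraries and 1 to 7 in the IDH2 KO libraries, and all 12 libraries matched their sex label. The hepatocyte markers *Alb*, *Apoa1* and *Ttr* were abundant, and the 6 hepatocyte markers together made up 66330 to 213700 CPM (the usual depth-scaled read count, here with library sizes scaled by TMM), although *Cps1* had no read in any library. Since the tissue was sequenced in bulk, fewer cells of a type and less RNA per cell cannot be told apart. Library IDH2 KO female 3 stood apart, with 8531 genes detected against 10482 to 12873 in the others and a median correlation with the other libraries of 0.865 against 0.944 to 0.963. Library WT male 1 held 55643 reads of 12 markers of intestinal epithelium, against 10 to 205 in the other libraries. Genes of mitochondrial DNA held 22.4% of reads in WT female 2, 25.7% in WT male 2 and 29% in IDH2 KO female 3. They held 39.7% to 50% in the remaining libraries, and the cause was not tested. Where a fit leaves out libraries they are named, and the other fits hold all 12 libraries.

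Of the 51 genes, 44 had at least 1 read and 30 had reads in every library. The 7 with no read were *Gsta2*, *Gsta3*, *Gsto2*, *Mgst2*, *Sult1b1*, *Sult1c1* and *Ugt2a2*, and a count of 0 over all 241346756 reads allows a level of up to 0.0124 RPM (reads scaled to depth alone), a limit that covers counting error only. A filter on low counts left 33 genes for the tests of genotype and of sex over all libraries, that is 12 GST, 2 MGST, 15 UGT and 4 SULT1 genes. The other 11 genes with reads, among them *Gstz1*, the maleylacetoacetate isomerase of tyrosine breakdown, and *Ugt8a*, which makes galactosylceramide for myelin, held 1 to 760 reads each over the series.

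Levels per kilobase of the longest coding transcript set the genes of the 4 families side by side. *Ugt2b36* came first at 479 CPM per kilobase, followed by *Ugt2b5* at 281 and by *Gstp1* at 197. *Ugt2b1* (167), *Ugt1a1* (159), *Gstm1* (154), *Ugt2a3* (154), *Gstk1* (143) and *Gsto1* (129) followed. Of the MGST genes *Mgst3* was highest at 25.9 CPM per kilobase, and of the SULT1 genes *Sult1d1*, which sulfates catecholamines, at 43.7. These means hold libraries of both sexes and genotypes, and *Gstp1* in particular ranged from 16.6 to 829 CPM between libraries, so its mean is over unlike groups.

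Whether a gene had reads went with how many transcripts RefSeq lists for it. Among the 32 genes with 1 RefSeq transcript, 26 had a mean of at least 1 CPM. Among the 15 with 3 or more, 2 did, *Mgst1* and *Ugt3a2*, and 4 had no read at all. Over all coding genes counted, 35.1% of 6859 genes with 1 transcript and 15.1% of 9743 genes with 3 or more were at 1 CPM or above. The cause was not tested. The order of levels given above sets genes of different transcript numbers side by side, such as *Sult1d1* (1) and *Sult1a1* (3), or *Mgst3* (1) and *Mgst1* (7), and carries that limit.

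Several members lie in clusters of near copies, and reads of 50 bases cannot always tell these apart. The 8 *Ugt1a* genes between 88055388 and 88220002 on chromosome 1 (GRCm38, GENCODE M21) each have a first exon of their own and share the remaining exons, and 20.2% to 47.9% of their 50-base transcript windows were found in no other gene. The share was 9.5% for *Gsta1*, 58.3% for *Ugt2b5*, 62.6% for *Ugt2b38*, 66.3% for *Gstp1* and 81.7% for *Ugt2b37*, and it was 99.7% for *Ugt2b36*, while every window of *Ugt2b1* was its own. How the authors assigned reads that match several genes is not given in the sources used here, so values of the *Ugt1a* genes, of *Gsta1* and of pairs such as *Gstp1* and *Gstp2* carry that uncertainty.

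The library IDH2 KO female 3 stood apart in these families too. In it 14 of the 33 tested genes lay below all 11 other libraries, 11 of 15 UGT but 1 of 12 GST genes, and 6 genes lay above all others. Over all 5829 tested genes with a coding transcript 40.0% lay below all other libraries there, a share close to that of the members. Transcript length separated most of the low members from the rest. All 11 members whose longest coding transcript had 2190 bases or more were below every other library, and 3 of the 22 shorter ones, of up to 2117 bases, were, a split that was set after the values were seen. Over all tested genes split at the same place 51.1% of 3699 long and 20.8% of 2130 short ones were below every other library.

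Among the long ones *Ugt2b34* was at 22.6 CPM against 219 to 482 elsewhere, *Ugt2b35* at 8.58 against 61.0 to 150.06, and *Ugt1a6a* at 3.92 against 26.3 to 54.1. Among the short ones *Ugt2b36* was at 912 CPM against 680 to 1201 elsewhere, and *Gstm5* at 24.6 against 9.08 to 14.0. Over the 33 genes, which share the one library, the log2 difference of that library from the median of the others had a Spearman correlation of -0.724 with transcript length, and over the 5829 genes the correlation was -0.391. In the other libraries the correlation over the 5829 genes lay between -0.224 and 0.341. Its cause was not tested, and UGT results that are described in detail are given with and without this library.

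**Figure D1:**
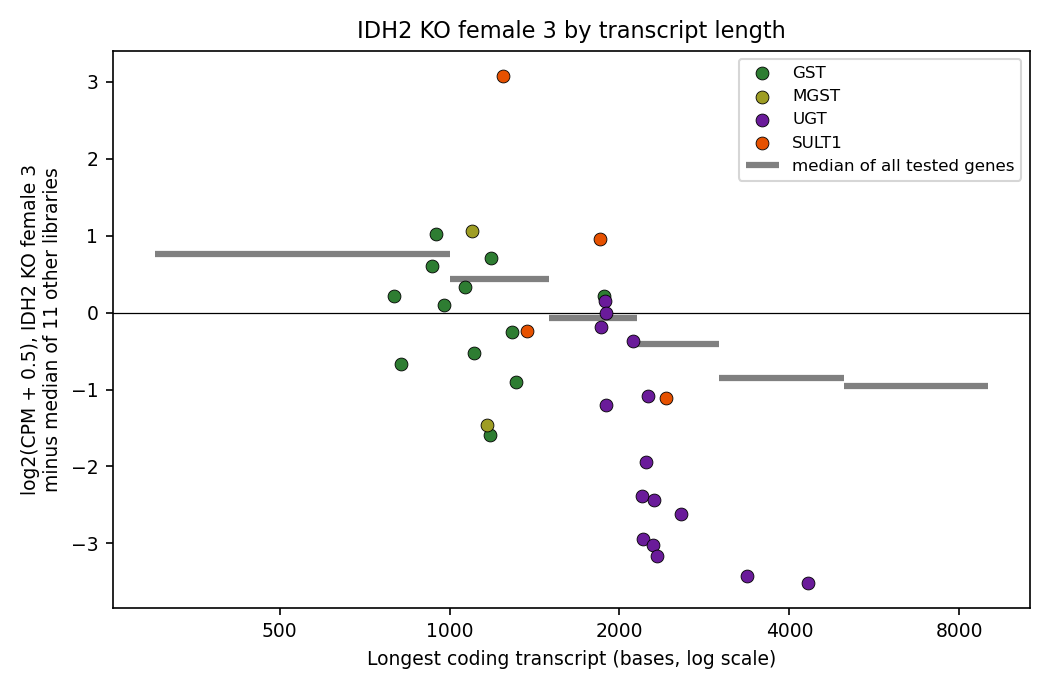
Difference of library IDH2 KO female 3 from the median of the other 11 libraries, as log2 of CPM plus 0.5, against the length of the longest coding transcript on a log axis. Points are the 33 tested genes by family and grey lines the medians of all tested genes per length class. The UGT genes of 2190 bases or more lie between -1.08 and -3.51.

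More of these genes were called by sex than by genotype. With sex and genotype in one edgeR quasi-likelihood model and p-values adjusted over all 7618 tested genes, 3 of the 33 genes were called at an adjusted p under 0.05 between males and females, all higher in males, a direction in which 0.827% of all tested genes were called. They were *Gstp1*, *Ugt2b38* and *Ugt2b1*. Among WT mice alone *Gstp1* and *Ugt2b38* were called, 2 of 34 members, where 0.659% of all genes were called. The *Ugt2b38* call among WT mice was lost without WT male 1, without WT male 3, without any 1 of the 4 WT females, and without both WT male 1 and IDH2 KO female 3 (2.28, adjusted p = 0.0595). Of all tested genes 1.98% were called in the comparison over both genotypes. At an unadjusted p under 0.05 there were 14 members, 8 higher and 6 lower in males, or 42.4% against 12.2% of all tested genes (5.42% higher and 6.77% lower).

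*Gstp1*, the pi class GST, is on chromosome 19 from 4035407 to 4037985. The level of *Gstp1* was 23.8, 71.1, 25.6 and 28.0 CPM in WT females 1 to 4, 261, 829 and 239 in WT males 1 to 3, 16.6, 19.4 and 44.6 in IDH2 KO females 1 to 3 and 138 and 244 in IDH2 KO males 1 and 2. All 5 males lay above all 7 females, and WT male 2 was far above the other males. Males were higher by 3.28 on the log2 scale (SE 0.42, edgeR adjusted p = 0.000263), and the difference between WT males and WT females alone was 3.56 (SE 0.53, adjusted p = 0.00296), or 2.73 (adjusted p = 0.0230) without WT male 2. The group means were 37.1 ± 22.7 CPM (SD, n = 4) in WT females, 443 ± 335 (SD, n = 3) in WT males, 26.9 ± 15.4 (SD, n = 3) in IDH2 KO females and 191 ± 74.3 (SD, n = 2) in IDH2 KO males.

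Its neighbour *Gstp2*, from 4040285 to 4046023, had 105 reads in all against 41276 for *Gstp1*. The coding sequences of both genes have 633 bases and differ at 12 of them, so that 415 of 584 coding windows of 50 bases are identical. The first 60 coding bases hold 6 of the 12 differences and are shown, from the GENCODE M21 transcripts, as the stretch of that length with most differences. Reads that cover the other differences can separate the genes as well. Capitals mark the bases that differ.
Gstp1 coding bases 1 to 60: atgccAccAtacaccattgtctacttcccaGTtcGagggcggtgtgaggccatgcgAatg
Gstp2 coding bases 1 to 60: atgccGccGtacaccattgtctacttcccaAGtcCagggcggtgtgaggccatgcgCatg
*Gstp2* was 1.88 higher in males on the log2 scale (SE 0.79, edgeR adjusted p = 0.325), and the groups overlapped.

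The UGT2B enzymes, which glucuronidate steroids and bile acids, lie in one cluster on chromosome 5 with *Ugt2a1*, *Ugt2a2* and *Ugt2a3*, from 86889767 to 87490871. In WT females 1 to 4 *Ugt2b1* was at 286, 316, 286 and 330.0 CPM, in WT males 1 to 3 at 622, 842 and 765, in IDH2 KO females 1 to 3 at 221, 333 and 53.9 and in IDH2 KO males 1 and 2 at 417 and 678. Every male was above every female, and the lowest value was that of IDH2 KO female 3. Males were higher by 1.35 on the log2 scale (SE 0.31, edgeR adjusted p = 0.0383). With IDH2 KO female 3 left out the difference was 1.17 (SE 0.16, adjusted p = 0.000273). In 10 of the 12 fits that left out 1 library the call was lost, with adjusted p-values of 0.0597 to 0.159, the highest without IDH2 KO male 2.

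*Ugt2b36* had 679.6, 819.6, 706 and 782 CPM in WT females 1 to 4, 941, 1201 and 1183 in WT males 1 to 3, 776, 734 and 912 in IDH2 KO females 1 to 3 and 1086 and 1043 in IDH2 KO males 1 and 2. This most abundant member was also higher in every male than in every female, by 0.50 on the log2 scale (SE 0.16, edgeR adjusted p = 0.157), and without IDH2 KO female 3 the adjusted p was 0.0233. For *Ugt2b5* the CPM were 406, 631, 335 and 386 in WT females 1 to 4, 529, 942 and 735 in WT males 1 to 3, 346, 359.7 and 454 in IDH2 KO females 1 to 3 and 518 and 618 in IDH2 KO males 1 and 2. The sexes overlapped for this gene, since WT female 2 lay among the males. It was 0.67 higher in males (SE 0.21, adjusted p = 0.144), and 0.72 (SE 0.18, adjusted p = 0.0297) without IDH2 KO female 3. Counting members whose 5 males lay above all 7 females gave 4, *Gstp1*, *Ugt2b1*, *Ugt2b35* and *Ugt2b36*, and none lay below, where 1.23% and 1.5% of all tested genes did. The level of *Ugt2b35* was 61.0, 80.1, 82.2 and 73.1 CPM in WT females 1 to 4, 150.1, 139.9 and 127 in WT males 1 to 3, 97.0, 77.0 and 8.58 in IDH2 KO females 1 to 3 and 102 and 107 in IDH2 KO males 1 and 2. It was 0.86 higher in males (SE 0.37, adjusted p = 0.364), and 0.67 (SE 0.15, adjusted p = 0.0174) without IDH2 KO female 3, the lowest library.

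*Ugt2b37* and *Ugt2b38*, at 87240493 to 87254804 and 87409942 to 87424203 on chromosome 5, are close copies whose values by sex had opposite signs. In WT females 1 to 4 *Ugt2b38* was at 1.85, 1.34, 0.444 and 1.25 CPM, in WT males 1 to 3 at 16.4, 4.44 and 7.61, in IDH2 KO females 1 to 3 at 0.334, 0.513 and 0.296 and in IDH2 KO males 1 and 2 at 1.30 and 4.98. Males were higher by 2.97 on the log2 scale (SE 0.44, edgeR adjusted p = 0.00122), or by 2.92 (adjusted p = 0.000885) without IDH2 KO female 3. Without WT male 1, its highest library, the difference was 2.61 (adjusted p = 0.00719). IDH2 KO male 1 was the one male within the female range. *Ugt2b37* had 16.3, 8.20, 4.04 and 13.4 CPM in WT females 1 to 4, 2.31, 2.22 and 1.34 in WT males 1 to 3, 1.00, 9.46 and 2.29 in IDH2 KO females 1 to 3 and 0.313 and 1.66 in IDH2 KO males 1 and 2. The male minus female difference of this gene was -2.30 (SE 0.57, adjusted p = 0.053), and with IDH2 KO female 3 left out it was -2.42 (SE 0.60, adjusted p = 0.0482). IDH2 KO females 1 and 3 lay among the males.

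The bases before the start of each gene are shown because these copies within one cluster have nearly the same promoter and values of opposite sign by sex. They come from RefSeq (GRCm38.p6), on the minus strand, at chr5:87254805-87255038 for *Ugt2b37* and chr5:87424204-87424453 for *Ugt2b38*. Over 234 aligned bases 220 (94.0%) were identical, and capitals mark the aligned bases that differ.
Ugt2b37 promoter: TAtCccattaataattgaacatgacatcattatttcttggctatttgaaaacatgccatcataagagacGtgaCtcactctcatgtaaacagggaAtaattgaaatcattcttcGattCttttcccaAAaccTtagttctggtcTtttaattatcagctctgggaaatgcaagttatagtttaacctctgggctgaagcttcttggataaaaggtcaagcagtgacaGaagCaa
Ugt2b38 promoter: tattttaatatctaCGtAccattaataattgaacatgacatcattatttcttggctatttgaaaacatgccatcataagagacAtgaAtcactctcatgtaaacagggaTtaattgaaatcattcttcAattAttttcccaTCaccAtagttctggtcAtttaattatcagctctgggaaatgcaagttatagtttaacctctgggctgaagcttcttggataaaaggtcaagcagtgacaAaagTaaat
One of the differences falls in the letters TGACTCA, the AP-1 motif, which the *Ugt2b37* window holds and the *Ugt2b38* window does not. On either strand 5.16% of all 27025 promoters of 250 bases hold these letters, as do 7 of the 47 members with a promoter in the table. The letters TTCNNNGAA, which STAT5 binds, were in neither window, and 8.13% of all promoters hold them. A match is a description of the letters and no evidence of binding.

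Of the glutathione transferases other than *Gstp1*, *Gstt3* and *Mgst1* had the smallest adjusted p-values by sex. For *Mgst1* the CPM were 11.5, 14.5, 14.7 and 9.10 in WT females 1 to 4, 15.7, 39.9 and 17.0 in WT males 1 to 3, 8.75, 8.21 and 4.95 in IDH2 KO females 1 to 3 and 12.9 and 15.1 in IDH2 KO males 1 and 2. The microsomal enzyme was 0.95 higher in males (SE 0.27, edgeR adjusted p = 0.098), with WT male 2 far above the rest and several overlaps between the sexes. The level of *Gstt3* was 61.1, 49.7, 118 and 108 CPM in WT females 1 to 4, 43.6, 38.7 and 28.8 in WT males 1 to 3, 146, 104 and 60.6 in IDH2 KO females 1 to 3 and 51.9 and 13.4 in IDH2 KO males 1 and 2. This theta class gene had a male minus female difference of -1.38 on the log2 scale (SE 0.35, adjusted p = 0.0634). Only IDH2 KO male 1 reached above the lowest female. Without IDH2 KO female 3 both passed, *Mgst1* at an adjusted p of 0.0405 and *Gstt3* at 0.0416.

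All 4 tested sulfotransferases had male minus female values below 0, as had 49.1% of all genes, although *Sult1a1* and *Sult1d1* were at 0.27 and 0.20 without scaling factors, which moved the median of all genes to 0.28. *Sult1e1* sulfates and so inactivates estrogens. In WT females 1 to 4 *Sult1e1* was at 1.03, 0.352, 0.740 and 1.72 CPM, in WT males 1 to 3 at 0.356, 0.0807 and 0, in IDH2 KO females 1 to 3 at 0.375, 2.22 and 6.88 and in IDH2 KO males 1 and 2 at 0.492 and 0.104. The value of IDH2 KO female 3 was the highest, and most libraries were under 1 CPM. The male minus female difference was -2.998 on the log2 scale (SE 0.81, edgeR adjusted p = 0.0815), and it was -2.42 (SE 0.72, adjusted p = 0.0682) without that library. *Sult1c2* had 6.43, 8.27, 9.17 and 9.66 CPM in WT females 1 to 4, 8.71, 4.11 and 6.88 in WT males 1 to 3, 11.8, 10.03 and 16.5 in IDH2 KO females 1 to 3 and 3.67 and 3.89 in IDH2 KO males 1 and 2. This gene differed by -0.90 (SE 0.31, adjusted p = 0.215), and WT males overlapped with WT females.

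*Ugt1a1* and *Ugt1a5* passed, lower in males, once the library that stood apart was left out. *Ugt1a1* is the enzyme that glucuronidates bilirubin. For *Ugt1a1* the CPM were 370.2, 495, 470.5 and 429.8 in WT females 1 to 4, 307, 276 and 321 in WT males 1 to 3, 666, 478 and 95.7 in IDH2 KO females 1 to 3 and 158 and 182 in IDH2 KO males 1 and 2. Apart from IDH2 KO female 3 every female was above every male. Over all libraries the male minus female difference was -0.84 (SE 0.35, edgeR adjusted p = 0.310), and without that library -0.99 (SE 0.20, adjusted p = 0.0087). *Ugt1a5* gave -1.41 (SE 0.50, adjusted p = 0.223) and -1.54 (SE 0.37, adjusted p = 0.0406) in the same fits. With IDH2 KO female 3 left out 11 of the 33 members were called between the sexes, 7 higher and 4 lower in males, where 4.05% of all tested genes were called. With WT male 1 left out as well there were 12, where 5.02% of all tested genes were called. DESeq2 called 8 over all libraries (4.41% of all genes), and edgeR without the low-count filter 12 (2.64%). Among WT mice alone the counts were 5 without IDH2 KO female 3 (1.37% of all genes), 4 with DESeq2 (1.37%) and 7 without the filter (1.45%). The 5 and the 4 include *Gsta1*, which passed the filter only through WT males 1 and 2.

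**Figure D2:**
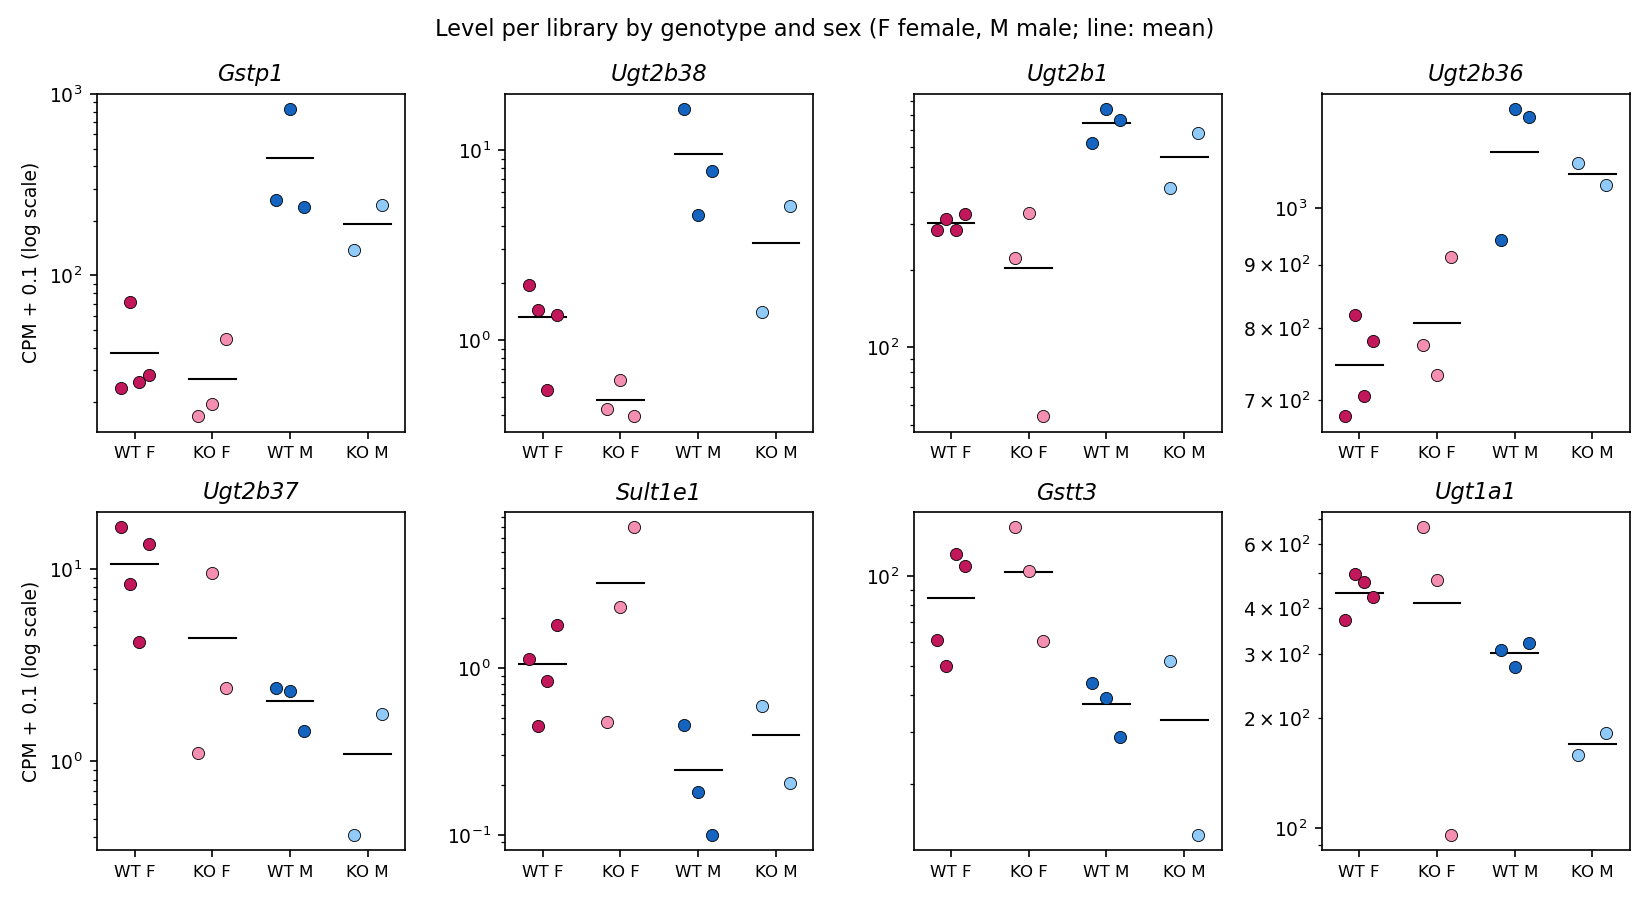
CPM plus 0.1 on a log axis in every library of the 4 groups for 8 genes, with points for libraries and a line for the group mean. *Gstp1*, *Ugt2b1* and *Ugt2b36* have every male above every female, and IDH2 KO female 3 is the lowest point for *Ugt2b1* and *Ugt1a1*.

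Markers of some other liver cells moved with sex too. All 5 tested Kupffer cell markers were lower in males at an unadjusted edgeR p under 0.05, as were 6.77% of all tested genes. Of these markers 1 was at an adjusted p under 0.05, where 1.98% of all tested genes were called in either direction. The summed level of the list was 78.1 to 387 CPM in females and 81.5 to 124 in males. At the same unadjusted p all 4 tested stellate cell and fibroblast markers were lower, with sums of 23.2 to 55.7 CPM in females and 7.48 to 21.6 in males. Endothelial markers summed to 31.5 to 84.8 CPM in females and 32.5 to 55.3 in males. The sums were 0.563 to 6.66 and 1.65 to 64.5 for cholangiocyte markers, and 1.73 to 5.46 and 0.334 to 2.55 for T, NK and B cell markers. The cholangiocyte sum of 64.5 was that of WT male 1, the library with the intestinal markers, and the other males were at 1.65 to 5.64. The part of these cells in the sex differences was not tested. Of the hepatocyte markers, 5 were tested and 1 was called, lower in males.

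The deletion of *Idh2* was the comparison the study was made for. No member was called between IDH2 KO and WT livers in the edgeR quasi-likelihood test, where 0.381% of all tested genes were called. No member had all IDH2 KO libraries on one side of all WT libraries, as 0.669% of all genes had. DESeq2 called no member either (0.827% of all genes), and without the filter on low counts edgeR called 2, *Ugt2b38* (-1.65, adjusted p = 0.0102) and *Ugt1a7c*, whose reads came almost all from WT male 1, where 1.19% of all genes were called. At an unadjusted p under 0.05 there were 5 members, *Ugt2b38*, *Mgst1*, *Gstt1*, *Gstm6* and *Ugt2b37*, all lower in IDH2 KO, or 15.2% against 6.71% of all tested genes, 3.24% being lower. Of the 33 tested members 23 had a log2 fold change below 0, with a median of -0.26, against 50.5% of all genes and a median of -0.0049. In simulated counts of this size 84% of genes changed 4-fold and 23% of genes changed 2-fold were called, so smaller differences could be missed. The changed genes had a mean of at least 1 RPM, and no simulated library was made to stand apart. The shares therefore do not cover *Gstm6*, *Sult1a1* and *Gstp2*, at means of 0.883, 0.798 and 0.468 CPM.

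The genotype difference of *Ugt2b38* was -1.63 on the log2 scale (SE 0.47, edgeR adjusted p = 0.359), and -1.56 (SE 0.48, adjusted p = 0.298) without IDH2 KO female 3. Its values, given above, were lower in IDH2 KO than in WT on average within each sex, with overlap in males and with WT female 3 at 0.444 CPM inside the range of the IDH2 KO females. *Mgst1* differed by -0.78 (SE 0.27, adjusted p = 0.550), and all 3 IDH2 KO females, at 4.95, 8.21 and 8.75 CPM, lay below all 4 WT females, while both IDH2 KO males lay below all 3 WT males. The level of *Gstt1* was 23.8, 9.96, 23.7 and 9.84 CPM in WT females 1 to 4, 14.2, 23.7 and 11.5 in WT males 1 to 3, 16.5, 9.35 and 7.84 in IDH2 KO females 1 to 3 and 7.38 and 3.37 in IDH2 KO males 1 and 2. This theta class enzyme differed by -0.98 (SE 0.37, adjusted p = 0.588), and in males the genotypes did not overlap.

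*Gstm6*, a mu class gene, is one that the study chose as differentially expressed on these same samples. In WT females 1 to 4 *Gstm6* was at 1.03, 0.809, 1.08 and 1.02 CPM, in WT males 1 to 3 at 1.01, 2.78 and 1.00, in IDH2 KO females 1 to 3 at 0.875, 0.456 and 0 and in IDH2 KO males 1 and 2 at 0.268 and 0.259. All levels were low, with 228 reads in the series and none in IDH2 KO female 3. The difference was -1.64 (SE 0.62, edgeR adjusted p = 0.596). The abundant mu class gene *Gstm1* differed by -0.41 (SE 0.20, adjusted p = 0.755). *Gstm1* had 195, 172, 190.3 and 181 CPM in WT females 1 to 4, 345, 213 and 268 in WT males 1 to 3, 194, 169 and 159 in IDH2 KO females 1 to 3 and 169 and 126 in IDH2 KO males 1 and 2. WT male 1 was the highest library, and IDH2 KO male 2 the lowest. For *Gsto1* the CPM were 179.6, 111, 158 and 166 in WT females 1 to 4, 202, 88.5 and 137 in WT males 1 to 3, 165, 139.9 and 229.8 in IDH2 KO females 1 to 3 and 133 and 115 in IDH2 KO males 1 and 2. *Gsto1*, whose omega class product reduces dehydroascorbate, differed by 0.047 (SE 0.23, adjusted p = 0.979).

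The sulfotransferases were the one family in which every tested member had a positive value, 4 of 4, with a median of 0.71. *Sult1e1* differed by 1.51 (SE 0.71, edgeR adjusted p = 0.743), and without IDH2 KO female 3 and WT male 1 by 0.96 (SE 0.72, adjusted p = 0.635). The level of *Sult1a1* was 0.515, 0.106, 1.13 and 0.697 CPM in WT females 1 to 4, 0.770, 0.282 and 0.334 in WT males 1 to 3, 1.38, 1.08 and 0.518 in IDH2 KO females 1 to 3 and 2.55 and 0.207 in IDH2 KO males 1 and 2. This phenol sulfotransferase, with 196 reads in all, differed by 1.08 (SE 0.62, adjusted p = 0.788). In WT females 1 to 4 *Sult1d1* was at 75.8, 101, 92.9 and 125 CPM, in WT males 1 to 3 at 86.6, 111 and 75.5, in IDH2 KO females 1 to 3 at 169, 150.1 and 46.4 and in IDH2 KO males 1 and 2 at 154 and 83.2. It differed by 0.34 (SE 0.28, adjusted p = 0.847), and by 0.55 (SE 0.20, adjusted p = 0.310) without the same 2 libraries. *Sult1c2* was at 0.070 (SE 0.31, adjusted p = 0.978) and at -0.12 without IDH2 KO female 3. None of these passed.

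*Mgst3* completes the abundant glutathione transferases. *Mgst3* had 26.2, 24.5, 26.3 and 31.4 CPM in WT females 1 to 4, 51.2, 17.3 and 19.4 in WT males 1 to 3, 41.9, 20.0 and 51.7 in IDH2 KO females 1 to 3 and 23.1 and 8.14 in IDH2 KO males 1 and 2. Its genotype difference was -0.055 (SE 0.38, edgeR adjusted p = 0.986), and WT male 1 and IDH2 KO female 3 were its highest libraries. The UGT genes had 12 of 15 values below 0, with a median of -0.46 and a range of -1.63 to 0.39, and without IDH2 KO female 3 the median was -0.26 with 13 of 15 below 0. For *Ugt2a3* the CPM were 281, 409, 336 and 348 in WT females 1 to 4, 306, 433 and 348 in WT males 1 to 3, 257, 341 and 259 in IDH2 KO females 1 to 3 and 291 and 296 in IDH2 KO males 1 and 2. The females of the genotypes overlapped, while both IDH2 KO males lay below all 3 WT males. The difference was -0.28 (SE 0.17, adjusted p = 0.803), and -0.24 (SE 0.15, adjusted p = 0.632) without IDH2 KO female 3. The level of *Ugt1a9* was 60.7, 47.6, 84.4 and 73.3 CPM in WT females 1 to 4, 41.1, 41.1 and 45.1 in WT males 1 to 3, 107, 92.8 and 11.2 in IDH2 KO females 1 to 3 and 127 and 20.7 in IDH2 KO males 1 and 2. The highest library was IDH2 KO male 1 while IDH2 KO male 2 was among the lowest, and the difference was 0.39 (SE 0.47, adjusted p = 0.905), or 0.70 (SE 0.35, adjusted p = 0.547) without IDH2 KO female 3. For the GST genes 9 of 12 were below 0, with a median of -0.20, but without IDH2 KO male 2 it was 5 of 12 with a median of 0.034, so their direction turned on that library. Of the tested erythroid markers 4 of 5 were higher in IDH2 KO at an unadjusted edgeR p under 0.05, where 6.71% of all tested genes passed in either direction. The summed levels of the erythroid list were 16.5 to 140.1 CPM in WT and 33.5 to 306 in IDH2 KO. Of that list *Alas2* was at 0.103 to 12.1 CPM in WT and 0 to 5.46 in IDH2 KO. The part of these markers in the result was not tested.

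**Figure D3:**
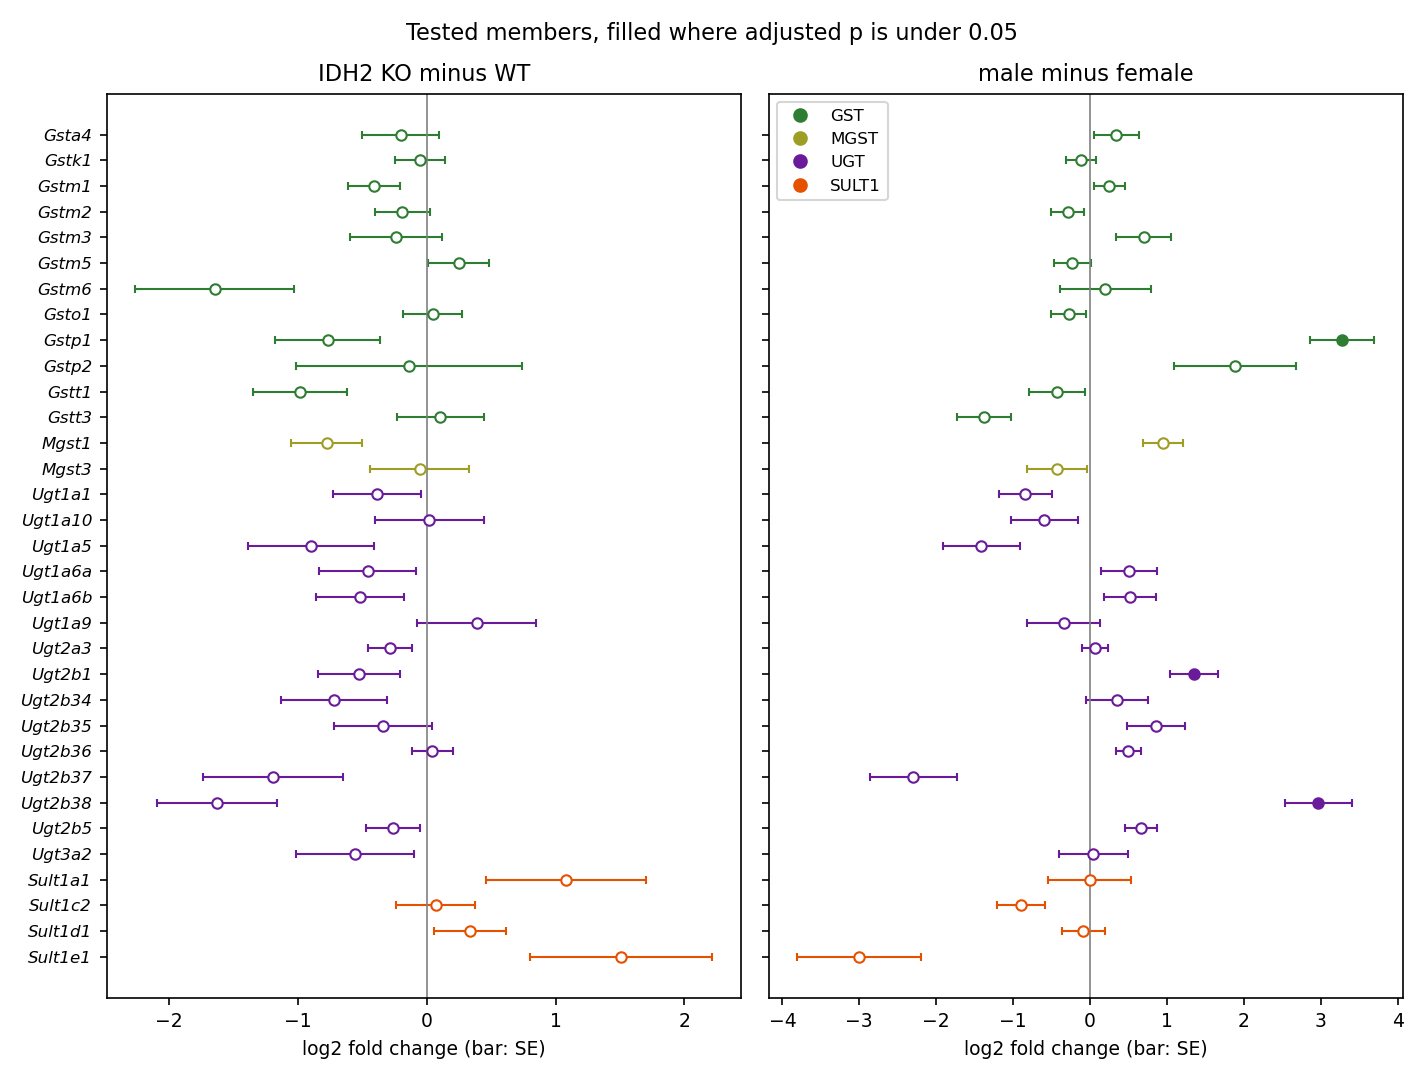
Log2 fold changes with standard errors of the 33 tested genes, by family, for IDH2 KO minus WT and for male minus female. Filled points, at an adjusted p under 0.05, are *Gstp1*, *Ugt2b1* and *Ugt2b38* in the sex comparison, and none are filled in the genotype comparison.

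Within each sex no member was called between the genotypes by edgeR, where 0.174% of all genes were called in females and 0.0925% in males, or by DESeq2, where 0.659% and 0.497% were. These fits tested 34 members, *Gsta1* being the one more. It passed the filter only through WT males 1 and 2, with 101 and 36 reads against 0 to 6 in the other libraries. A lower value in IDH2 KO males was thus favoured by the filter for this gene. In females 1 member, *Ugt2b38*, was at an unadjusted p under 0.05, where 5.25% of all genes were. In males 7 were, all lower in IDH2 KO, namely *Gstm1*, *Gstt1*, *Ugt1a5*, *Gstm6*, *Gsta1*, *Gsta4* and *Ugt2b38*, or 20.6% against 4.27% of all genes, 2.08% being lower. Without the low-count filter 2 members were called in males, *Ugt1a5* and *Ugt1a7c*, where 0.873% of all genes were. The reads of *Ugt1a7c* came almost all from WT male 1, as described further on.

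The genotype values of the GST genes were taken by sex. The 13 tested include *Gsta1*, which passed the low-count filter only through WT males 1 and 2. The filter thus favoured a value below 0 for it in males and in the interaction. In males 12 of 13 were below 0, with a median of -0.91, and in females 4 of 13 were, with a median of 0.19. Of all genes 50.7% were below 0 in males and 51.6% in females, with medians of -0.0084 and -0.023. The interaction of genotype and sex was below 0 for all 13 GST genes, with a median of -0.79 and a range of -3.80 to -0.19, against 49.2% of all genes and a median of 0.014. No single interaction was called, by edgeR or by DESeq2 (0 of 34 members, with 0% of all genes called by edgeR and 0.116% by DESeq2), and 3 members, *Gsta1*, *Gsta4* and *Sult1c2*, were at an unadjusted p under 0.05, as were 3.17% of all genes. Without the low-count filter 1 member was called, *Ugt1a7c*, where 0.278% of all genes were. It had 723 of its 760 reads in WT male 1.

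In WT females 1 to 4 *Gsta4* was at 51.2, 33.4, 69.8 and 57.2 CPM, in WT males 1 to 3 at 133, 78.6 and 69.4, in IDH2 KO females 1 to 3 at 83.0, 45.9 and 63.5 and in IDH2 KO males 1 and 2 at 59.0 and 37.7. The enzyme conjugates the lipid peroxidation product 4-hydroxynonenal, and both IDH2 KO males lay below all 3 WT males. Its genotype difference was -0.94 (SE 0.41, edgeR adjusted p = 1) in males, and its interaction was -1.20 (SE 0.52, adjusted p = 0.9998). *Gstm1* was at -0.89 in males (SE 0.29, adjusted p = 0.865).

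Hepatocyte markers were also lower in the IDH2 KO males. Their summed level was 66330 to 77490 CPM in the IDH2 KO males, 105900 to 135000 in the WT males, 163000 to 213700 in the IDH2 KO females and 132800 to 202900 in the WT females, and in males 5 of 5 tested were below 0 by genotype with a median of -0.66, 1 of them at an unadjusted p under 0.05. Erythroid markers summed to 216 to 306 CPM in the IDH2 KO males and to 16.5 to 54.6 in the WT males. The globin gene *Hbb-bs* alone was at 251 and 158 CPM in IDH2 KO males 1 and 2. *Alas2* of the same list was not higher, at 5.46 and 3.79 CPM there against 5.57, 12.1 and 6.28 in WT males 1 to 3. The part of these shifts in the GST values was not tested.

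The GST values rest on 2 IDH2 KO males and on WT male 1, whose *Gsta1*, *Gsta4* and *Gstm1* levels were the highest of all libraries. Without IDH2 KO male 1 the GST median was -1.49 for the interaction and -1.31 by genotype in males, and without IDH2 KO male 2 it was -0.57 and -0.68, with 14 GST genes tested in each of these fits. Without WT male 1 the interaction was below 0 for 12 of 12 tested GST genes with a median of -0.75, without IDH2 KO female 3 for 12 of 13 with a median of -0.88, and without both for 10 of 12 with a median of -0.65. Without scaling factors the median of all genes was 0.38, and that of the GST genes was -0.41 with 11 of 13 below 0. In females the GST count below 0 was 9 of 13 with a median of -0.088 when IDH2 KO female 3 was left out, so their direction there depends on that library. For the UGT genes in females 13 of 15 were below 0 with that library and 8 of 16 without it.

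**Figure D4:**
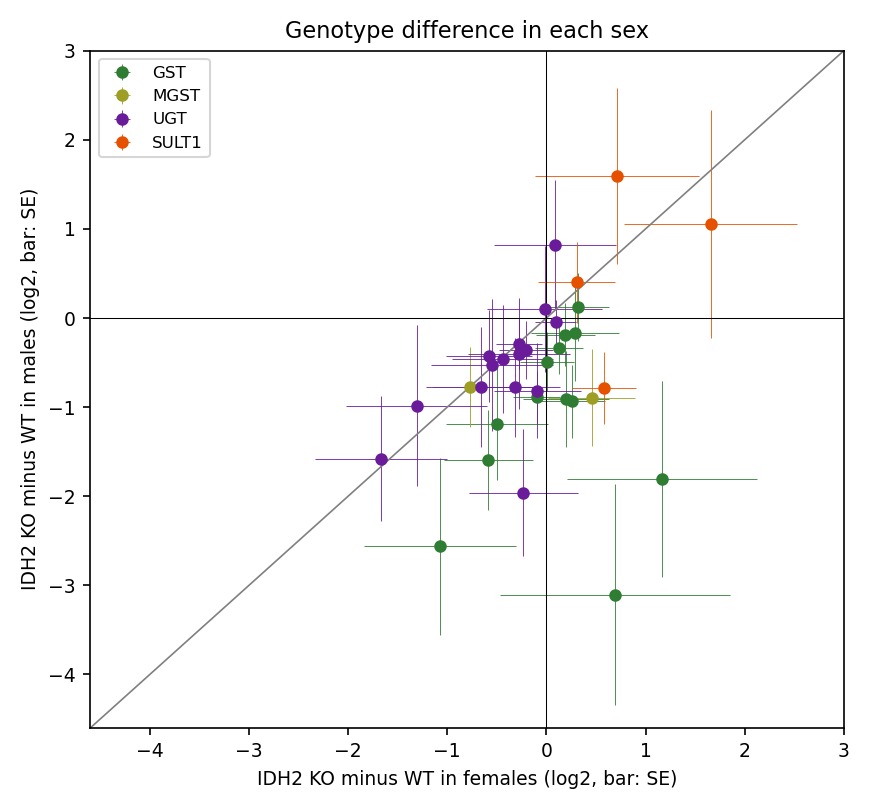
Log2 fold change of IDH2 KO against WT in males against that in females for 34 genes, with standard errors and the line of equal change. All 13 GST points lie below the line, and *Gsta1* among them passed the filter only through WT males 1 and 2.

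*Ugt1a5* was the one member whose genotype difference in males passed after IDH2 KO female 3 was left out, and it is described because of that. *Ugt1a5* had 85.8, 81.6, 108 and 70.4 CPM in WT females 1 to 4, 61.0, 45.7 and 46.7 in WT males 1 to 3, 99.2, 111 and 8.73 in IDH2 KO females 1 to 3 and 15.03 and 10.99 in IDH2 KO males 1 and 2. Both IDH2 KO males lay below all 3 WT males, and the IDH2 KO females lay above or among the WT females apart from IDH2 KO female 3. Over all libraries the difference in males was -1.9595 (SE 0.71, edgeR adjusted p = 0.990). Without IDH2 KO female 3 it was -1.960 (SE 0.25, adjusted p = 0.0013), the difference in females was 0.30 (SE 0.22, adjusted p = 0.841), and the interaction was -2.26 (SE 0.33, adjusted p = 0.0192). In that fit 0.321% of all genes were called in males and 0.0229% in the interaction. With WT male 1 left out too it was called in males (-1.83, adjusted p = 0.0038) and in the interaction (-2.12, adjusted p = 0.0439), where 0.426% and 0.0346% of all genes were. Only 36.0% of the 50-base windows of *Ugt1a5* are its own.

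The other member that the study chose on these samples, *Ugt1a7c*, had nearly all its reads in 1 library. For *Ugt1a7c* the CPM were 0.412, 0.211, 0.197 and 0.325 in WT females 1 to 4, 42.8, 0.0403 and 0.334 in WT males 1 to 3, 0.125, 0.171 and 0 in IDH2 KO females 1 to 3 and 0 and 0 in IDH2 KO males 1 and 2. WT male 1 held 723 of its 760 reads. The low-count filter removed the gene from the tests. That library also had 101 of the 171 reads of *Gsta1*, at 5.99 CPM against 0 to 1.45 in the others, and it was the highest library for *Gsta4* at 133 CPM against 33.4 to 83.0. It is the library with the intestinal markers, of which 9 of 12 were highest there, with a summed level of 3298 CPM against 0.740 to 7.52. The part of intestinal RNA in these values was not tested.

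**Figure D5:**
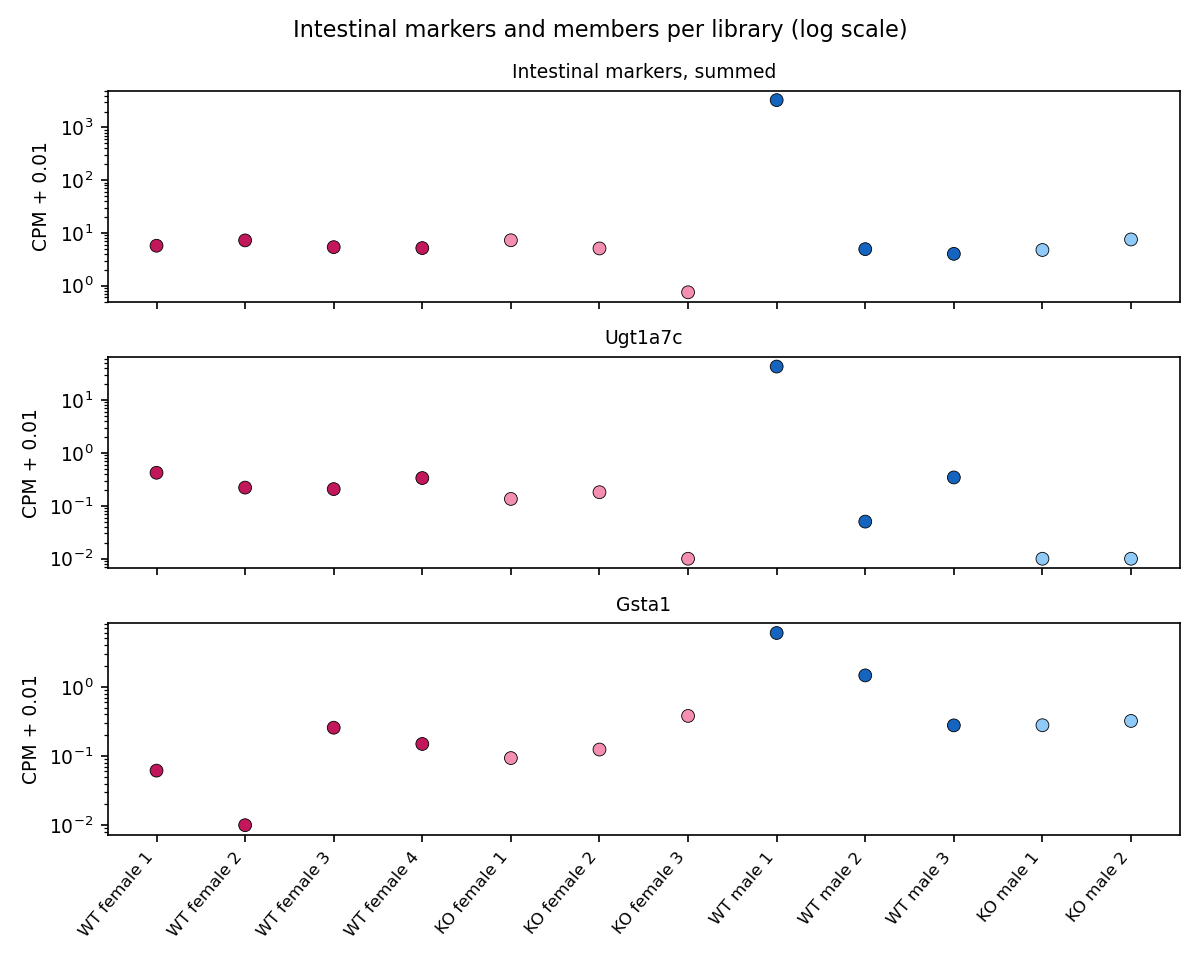
Summed level of 12 intestinal epithelium markers and levels of *Ugt1a7c* and *Gsta1* in each library, as CPM plus 0.01 on a log axis. WT male 1 is the highest library in all 3 panels.

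The rest of the conjugation pathway gave few differences. Among 12 genes that supply glutathione, UDP-glucuronic acid and PAPS, 6 were tested, and none was called by genotype or by sex. The rate-limiting enzyme of glutathione synthesis has its catalytic subunit in *Gclc*, at 0.34 (SE 0.28, edgeR adjusted p = 0.847) in IDH2 KO against WT, and its modifier in *Gclm*, at -0.091 (SE 0.22, adjusted p = 0.957). Of 18 other conjugating enzymes 8 were tested and none was called in either comparison.

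Of 13 regulators and classical targets of NRF2, the factor that induces many GST genes, 9 were tested. None was called by genotype, with a median of -0.091, and 1 was called by sex, *Aox1*, an oxidase of aldehydes and heterocycles, which was 0.80 higher in males (SE 0.18, edgeR adjusted p = 0.0344). *Nqo1*, the quinone reductase used as an NRF2 readout, was at 0.21 (SE 0.27, edgeR adjusted p = 0.914) in IDH2 KO against WT. The letters TGACNNNGC of the antioxidant response element, through which NRF2 acts, were in 4 of the 47 member promoters, those of *Gsta3*, *Gstm5*, *Gstm7* and *Mgst1*, and in 11.5% of all promoters.

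Xenobiotic receptors and their classical phase I targets numbered 14, with 10 tested and none called by genotype or by sex. Among them *Cyp2c55* had -1.53 (SE 0.52, edgeR adjusted p = 0.507) and *Nr1i3*, the receptor CAR, had 1.00 (SE 0.40, adjusted p = 0.654) in IDH2 KO against WT. Of 7 export pumps for conjugates 2 were tested, *Abcc2* and *Abcc3*, and neither was called.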

How the data were processed

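The authors deposited read counts per gene, not normalized, for 12 liver libraries, and the processing notes name FastQC and build GRCm38.p5. Not given in the sources used here were the aligner and the counter. Counts were tested with edgeR 4.0.16 (R 4.3.3, limma 3.58.1) by a robust quasi-likelihood fit with TMM scaling and its default low-count filter. The filter asked for 15 reads in all and for the depth-scaled equivalent of 10 reads in several libraries. It takes the number of libraries from the design, so a gene with its reads in 1 library could be removed. The model held sex and genotype, or 1 term per group within sexes and for the interaction. P-values were adjusted by Benjamini-Hochberg over all tested genes. The study's own test had no sex term. Alternatives were DESeq2 1.42.0, limma on log2 RPM plus 1, other scalings, no filter, the authors' filtered gene list, a replicate block and fits without single libraries. Leaving out IDH2 KO female 3 with WT male 1 was added after seeing the data. The fits of genotype and of sex over all libraries were tested on simulated data.

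Values per library are given for called members, the 3 most abundant per family, the 3 of smallest p in each direction by genotype and members of the study's own list. *Ugt2b37*, *Ugt2b35*, *Gstt3*, *Ugt1a1*, *Ugt1a5*, *Ugt1a9*, *Ugt2a3*, *Gsta1*, *Gsta4*, the genes named from other lists and the intestinal markers were chosen after their values were seen. All members and lists were chosen with earlier results of these data known.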

Additional observations from a re-analysis of the deposited data

Results flagged for a closer look

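*Gstp1* in WT female 2 stood at 71.1 CPM, far from the next WT female at 28.0 CPM, with a gap of 0.911 of the range of the 4 WT females. It was the 1 value so marked among 33 members tested in that group. Chance marks about 1 in 20 such groups, so 1 mark among 33 is no more than chance would give. WT female 2 also had the lowest share of reads from mitochondrial DNA, 22.4%. With WT female 2 left in or out, *Gstp1* stayed called between the sexes.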

How the results depend on the processing

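The number of members called moved with the filter and with 1 library. Without the filter on low counts it was 2 for IDH2 KO against WT, 2 for IDH2 KO against WT in males, 1 for the interaction, 12 for males against females and 7 for WT males against WT females. DESeq2 gave 8 for males against females and 4 within WT. Without both IDH2 KO female 3 and WT male 1 it was 1 in males, 1 for the interaction and 12 for males against females. Leaving out 1 library in turn gave 0 to 1 in males and for the interaction (1 without IDH2 KO female 3), 2 to 11 for males against females and 1 to 5 within WT (both highest without IDH2 KO female 3). In females the number was 0 throughout. The replicate block gave 0 members for IDH2 KO against WT, in each sex and for the interaction. Same-numbered libraries did not deviate together, with correlations of -0.183 to 0.0835, so the numbers were not taken as pairs.

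Values near 0 changed sign, and the cause was not tested. Genotype values were 0.056 without the sex term and 0.014 without both libraries for *Mgst3* (-0.29 to 0.24 leaving out 1 library), -0.063 without both for *Ugt2b36* (-0.0069 to 0.069), -0.088 to 0.18 for *Gsto1* and -0.12 to 0.25 for *Sult1c2*. Sex values were 0.27 without scaling, 0.080 with limma and 0.11 without the genotype term for *Sult1a1* (-0.85 to 0.27), 0.20 without scaling and 0.23 with limma for *Sult1d1* (-0.24 to 0.032) and -0.32 to 0.54 for *Gstm6*. Of the other comparisons of settings 564 kept direction and call, 15 gained the call and 10 lost it. In simulated counts for IDH2 KO against WT (7618 genes) 23% of 2-fold changes were recovered among genes of at least 1 RPM, so differences of that size could be missed. No simulation was made for the comparison within males, which has 2 IDH2 KO males, or for the interaction.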
